A study of Mus musculus with 12 samples.

Results

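The genes described here are those of glycolysis and of the response to hypoxia: glucose transporters, glycolytic and pyruvate-handling enzymes, lactate carriers, the hypoxia-inducible factors with their hydroxylases, and targets of those factors. They were chosen by name, with earlier results of these data known. Of the 38 listed genes, 31 could be read from a named probe set among the 17306 that were tested. The other 7 (Gpi1, Gapdh, Pgk1, Pgam1, Eno1, Ldha and Bnip3) were not analysed here, apart from control probe sets for Gapdh. The samples were 12 expression arrays of C166 cells, a mouse line that the labels call endothelial, in 3 groups of 4. VEGF-down and VEGF-up cells carried a lentiviral vector with GFP and 1 of 2 shRNAs directed at the promoter of Vegfa, and GFP cells carried the GFP vector without an shRNA, so that all 3 groups had been transduced. Transduction was done at a multiplicity of infection of 10 and 20% confluency, the medium was changed after 72 h, and cells were collected on day 7 with over 99% of them expressing GFP. The control vector held no shRNA, so in comparisons with GFP cells the presence of an shRNA and its target sequence cannot be told apart. Between VEGF-up and VEGF-down cells, which both carried an shRNA, each direction still rests on 1 shRNA. The labels name no low-oxygen treatment. Whether replicates came from separate cultures is not stated, and p-values here reflect no more than the spread among these arrays, which may be technical.

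Glycolysis splits glucose into pyruvate in the cytosol, and pyruvate is either oxidised in mitochondria or reduced to lactate. When oxygen is short, prolyl hydroxylases of the Egln family stop marking the hypoxia-inducible factor alpha subunits for destruction, and the stabilised factors bind the core letters ACGTG or GCGTG in DNA and raise transcription of glycolytic genes, of Egln3 itself and of Vegfa. Endothelial cells are known for drawing much of their energy from glycolysis.

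Vegfa, the gene whose promoter the shRNAs address, had log2 intensities of 6.46, 6.61, 6.54 and 6.55 in VEGF-down cells and 7.35, 7.66, 7.68 and 7.48 in VEGF-up cells, against 7.15, 7.37, 7.13 and 7.15 in GFP cells. All VEGF-down arrays lay below the GFP arrays (exact permutation test, two-sided p = 0.0286, the smallest that 4 against 4 arrays can give, 0.0429 after Benjamini-Hochberg adjustment over the 3 comparisons). The VEGF-up arrays overlapped the GFP arrays (exact p = 0.0571, adjusted 0.0571). In the limma fit across all probe sets, Vegfa fell in VEGF-down cells (log2 difference -0.66, adjusted p = 5.76e-05) and rose in VEGF-up cells (0.34, adjusted p = 0.0134), the rise being lost with spike-in scaling (0.21, adjusted p = 0.0639). Of 16 endothelial marker genes, 4 (Kdr, Flt1, Esam and Egfl7) were above the background level, a log2 intensity of 3.09 taken from 68 receptor genes of smell and taste, and Pecam1, Cdh5, Tek, Tie1, Erg and Vwf were at or below it. Averaged over all 12 arrays, all 8 mesothelial markers and 11 of 12 smooth muscle and fibroblast markers were above it. Of these, Krt8 passed only through VEGF-down cells (5.66, against 2.19 in VEGF-up and 2.20 in GFP cells). The arrays thus go against the endothelial label, and the cells are called C166 here. The summed intensity of the mesothelial markers ran from 12692 to 13082 in VEGF-down cells and from 7469 to 7835 in VEGF-up cells, against 8008 to 8879 in GFP cells. That of the smooth muscle and fibroblast markers ran from 20757 to 21639 in VEGF-down cells and from 22957 to 24118 in VEGF-up cells, against 26725 to 27601 in GFP cells. That of the endothelial markers ran from 450 to 478 in VEGF-down cells and from 196 to 257 in VEGF-up cells, against 184 to 192 in GFP cells. Kdr, the main VEGF receptor of endothelium, averaged a log2 intensity of 8.30 on the VEGF-down and 5.47 on the VEGF-up arrays, against 4.96 on the GFP arrays, and was the 1 endothelial marker that rose in VEGF-down cells, where Egfl7 averaged 6.07, against 6.21 in GFP cells. Of 8 measured blood and macrophage markers 3 were above background, Cd14, Csf1r and Cd68, with mean log2 intensities of 9.18, 6.49 and 4.76. Ptprc, Adgre1, Lyz2, Itgam and Cd3e were at or below it. The summed intensity of the 8 ran from 804 to 858 in VEGF-down cells and from 482 to 541 in VEGF-up cells, against 849 to 1048 in GFP cells. These sums moved with the groups, and their part in the results below was not tested. In bulk samples such as these, fewer cells of a type and less RNA per cell cannot be told apart.

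Promoter windows were available for 27 of the 31 measured genes from RefSeq (GRCm38.p6), each 300 bases long with 250 before and 50 after the start of transcription. They are shown here for the 6 of those genes whose level changed by at least 0.58 on the log2 scale, about 1.5-fold, in some comparison, since the core letters of the hypoxia-inducible factors can be read in them directly. The windows lie at chr11:78322823-78323122 on the + strand for Aldoc, chr6:142507908-142508207 on the - strand for Ldhb, chr2:71872974-71873273 on the + strand for Pdk1, chr12:54203825-54204124 on the - strand for Egln3, chr14:45318523-45318822 on the - strand for Ero1a and chr10:59951721-59952020 on the - strand for Ddit4. Each is written along its gene, and capitals mark ACGTG or GCGTG, or CACGT or CACGC where the same letters stand on the opposite strand.
Aldoc: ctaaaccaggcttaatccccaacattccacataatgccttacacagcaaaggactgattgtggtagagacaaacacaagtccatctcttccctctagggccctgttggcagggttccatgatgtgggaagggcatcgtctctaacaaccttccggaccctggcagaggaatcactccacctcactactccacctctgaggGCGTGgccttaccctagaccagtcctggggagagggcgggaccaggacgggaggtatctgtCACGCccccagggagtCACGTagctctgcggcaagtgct
Ldhb: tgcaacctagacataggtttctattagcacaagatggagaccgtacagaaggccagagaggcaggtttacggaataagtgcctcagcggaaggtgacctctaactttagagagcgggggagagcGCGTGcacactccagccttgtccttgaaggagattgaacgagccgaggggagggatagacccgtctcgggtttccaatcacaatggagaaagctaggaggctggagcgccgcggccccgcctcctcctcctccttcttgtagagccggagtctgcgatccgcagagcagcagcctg
Pdk1: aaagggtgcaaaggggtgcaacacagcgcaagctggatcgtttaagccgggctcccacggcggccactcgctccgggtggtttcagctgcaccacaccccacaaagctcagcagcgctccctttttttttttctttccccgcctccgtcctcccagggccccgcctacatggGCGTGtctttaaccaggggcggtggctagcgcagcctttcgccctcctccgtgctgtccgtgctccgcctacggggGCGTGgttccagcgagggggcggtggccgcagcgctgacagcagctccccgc
Egln3: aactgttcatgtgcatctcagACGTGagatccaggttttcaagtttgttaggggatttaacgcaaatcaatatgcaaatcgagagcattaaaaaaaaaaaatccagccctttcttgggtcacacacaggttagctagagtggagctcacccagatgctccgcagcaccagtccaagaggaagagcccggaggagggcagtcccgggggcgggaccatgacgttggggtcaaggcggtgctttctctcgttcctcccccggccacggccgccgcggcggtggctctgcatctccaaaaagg
Ero1a: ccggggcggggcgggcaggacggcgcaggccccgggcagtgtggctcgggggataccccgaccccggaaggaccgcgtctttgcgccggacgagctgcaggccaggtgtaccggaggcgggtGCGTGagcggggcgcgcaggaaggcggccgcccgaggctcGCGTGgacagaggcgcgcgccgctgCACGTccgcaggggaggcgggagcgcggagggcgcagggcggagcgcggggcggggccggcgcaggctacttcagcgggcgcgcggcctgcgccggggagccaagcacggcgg
Ddit4: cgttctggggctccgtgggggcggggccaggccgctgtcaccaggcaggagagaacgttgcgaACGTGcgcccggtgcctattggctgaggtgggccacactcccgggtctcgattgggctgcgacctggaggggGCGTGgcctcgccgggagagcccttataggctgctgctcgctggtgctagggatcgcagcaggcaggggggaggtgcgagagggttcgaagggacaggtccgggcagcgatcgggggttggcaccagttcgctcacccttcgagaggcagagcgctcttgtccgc

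Each of these 6 windows, the first listed for its gene, held at least 1 core, while a second window of Pdk1 (chr2:71874654-71874953) held 0 and a second window of Aldoc held 1. Ero1a had GCGTG at -128 and -88 from the start and ACGTG on the opposite strand at -63, and Egln3 had ACGTG alone, at -229. Ddit4 had ACGTG at -187 and GCGTG at -115. In Aldoc, GCGTG stood at -50 and, on the opposite strand, at 12, with ACGTG on the opposite strand at 28. Pdk1 had GCGTG at -78 and -2, and Ldhb had it at -126. Over all windows of the measured genes, some genes having several, 31 of 38 held either core on either strand (81.6%), against 55.2% of the windows of all genes named on the array and 43.8% of all windows in the RefSeq table. The palindrome CACGTG counts on both strands. Overlapping windows of Aldoa, and likewise of Pfkm, shared a core, which was counted in each of them. The cores occurred in genes that were higher and in genes that were lower, as the levels below show, and a match describes the letters and not a bound site.

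**Figure D1:**
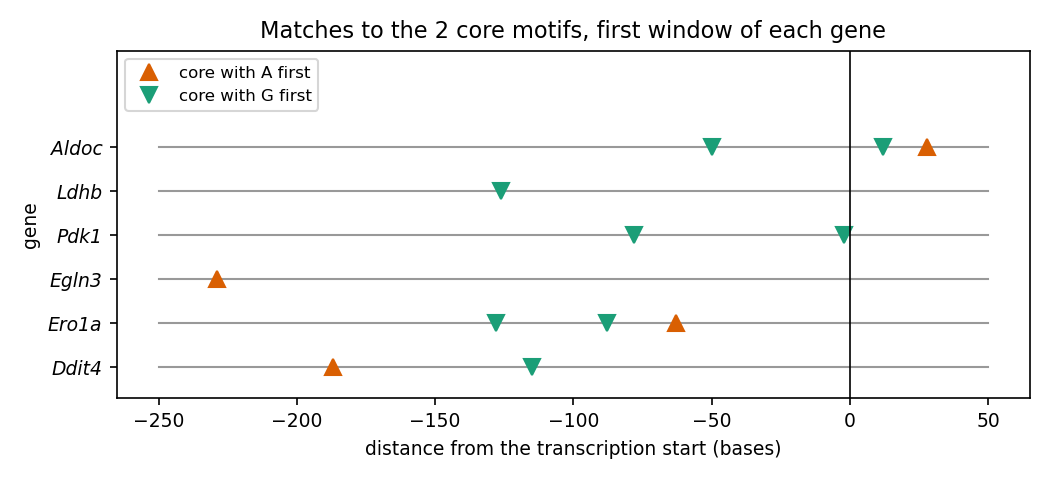
Position of the core letters ACGTG and GCGTG, in bases from the start of transcription on the x axis, in the first promoter window of the 6 genes whose sequences are printed, 1 row per gene. Ero1a and Aldoc hold 3 cores each, Pdk1 and Ddit4 hold 2, and Egln3 and Ldhb hold 1.

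In VEGF-down cells, 20 of the 31 genes changed against GFP cells (limma across all probe sets, Benjamini-Hochberg adjusted p under 0.05), 7 higher and 13 lower, which is 64.5% beside 31% of all probe sets tested (14.6% higher and 16.4% lower). Among probe sets above background the VEGF-down shares were 69.0% for these genes and 45.2% for all. In VEGF-up cells, 11 of the 31 changed, 1 higher and 10 lower, which is 35.5% beside 13.2% of all probe sets (6.73% higher and 6.51% lower). Above background, 37.9% of these genes and 20.9% of all probe sets changed in VEGF-up cells. The count in VEGF-up cells was 7 when GFP replicate 3 was left out, and 7 when the fit held only the 8 arrays compared. The median log2 difference of the 31 genes from GFP cells was -0.14 for VEGF-down and -0.09 for VEGF-up cells, where that of all probe sets was -0.01 for each. Both comparisons use the same 4 GFP arrays. Between the shRNAs, VEGF-up against VEGF-down cells, 22 genes changed, 11 higher and 11 lower (71.0% beside 30.6% of all probe sets, 15.1% higher and 15.5% lower). Above background, 75.9% of these genes and 48.2% of all probe sets changed between the shRNAs.

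**Figure D2:**
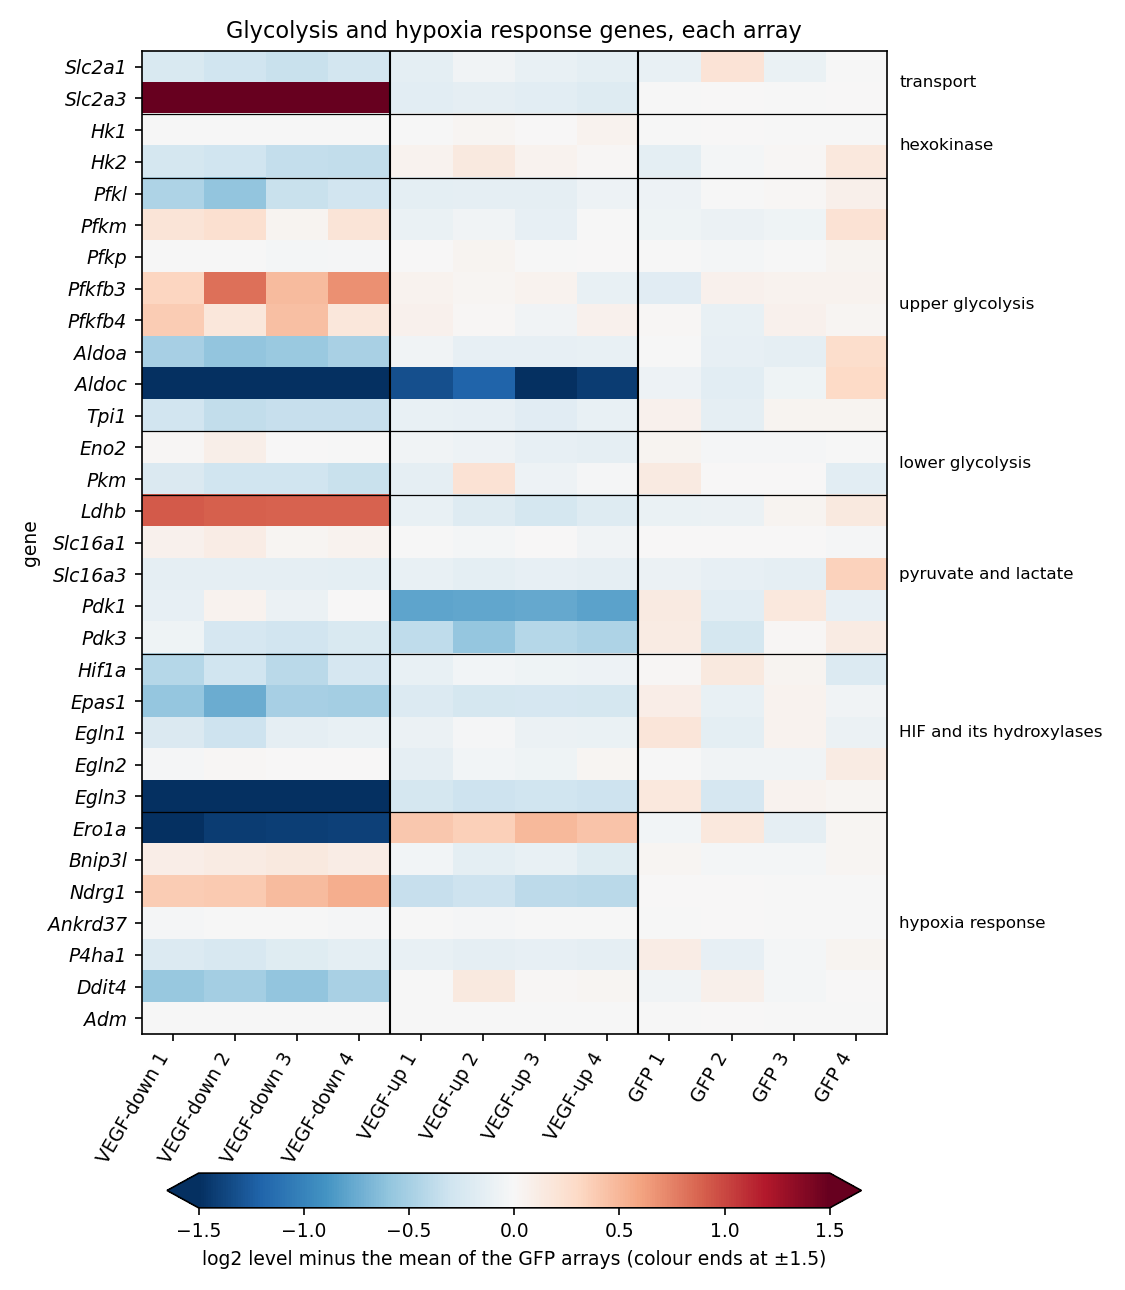
Log2 intensity of each of the 31 genes on each of the 12 arrays, minus the mean of the GFP arrays, as colour, with the scale ending at 1.5 above and below. Slc2a3 stands highest in the VEGF-down arrays, Aldoc is low in both shRNA groups, and Egln3 and Ero1a are low in the VEGF-down arrays.

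The deposited intensities were not scaled to the poly-A spike-in controls, which averaged 0.02 to 0.19 above their overall log2 mean on the VEGF-down arrays and -0.03 to 0.03 around it on the VEGF-up arrays, against -0.23 to 0.01 on the GFP arrays. Scaling to them lowered every VEGF-down difference by 0.25 and every VEGF-up difference by 0.13 on the log2 scale, and the medians of all probe sets became -0.26 and -0.14. The medians of the 31 genes became -0.39 and -0.23, and the share of changed genes that were higher in VEGF-down cells became 14.3%, against 35% without it, where the same share over all probe sets became 5.89%, against 47.1%. Directions below are those without that scaling. Against GFP cells it turned the sign of 2 changes, of Bnip3l and Slc16a1 in VEGF-down cells, as given beside them. It also turned differences that had not passed the test, those of Pfkm (-0.08), Eno2 (-0.22) and Egln2 (-0.25) in VEGF-down cells and of Hk1, Hk2, Pfkp, Pfkfb3, Pfkfb4 and Ddit4 in VEGF-up cells (-0.12 to -0.07), of which Eno2 and Egln2 then passed (adjusted p = 0.00605 and 0.00352). Of the 20 changes in VEGF-down cells 17 held under every alternative tried, as did 6 of the 11 in VEGF-up cells.

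The glucose transporters gave the widest change. Slc2a3, the high-affinity GLUT3 transporter, had log2 intensities of 7.18, 7.20, 7.24 and 7.18 in VEGF-down cells and 4.15, 4.17, 4.15 and 4.12 in VEGF-up cells, against 4.31 on each of the 4 GFP arrays. The VEGF-down arrays stood far above all others and the VEGF-up arrays just below the GFP arrays, with no overlap. The gene was 7.41-fold higher in VEGF-down cells (log2 difference 2.89 ± 0.02 SE, adjusted p = 1.58e-14). It fell by 0.16 on the log2 scale in VEGF-up cells (adjusted p = 0.000404). An offset of 16 added before log2 made both differences smaller, the VEGF-up fall being 0.087, and both still passed the test. The 7.41-fold value thus holds only without that offset, at low GFP intensities. In the authors' deposited table the fold of Slc2a3 in VEGF-down cells is 7.38. Slc2a1, which encodes GLUT1, the basal transporter, ran from 8.64 to 8.74 in VEGF-down cells and from 8.82 to 8.91 in VEGF-up cells, against 8.86 to 9.18 in GFP cells. It fell in VEGF-down cells (-0.28 ± 0.06 SE, adjusted p = 0.00461), while the VEGF-up difference was -0.12 (adjusted p = 0.22).

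Hexokinases trap glucose by phosphorylation. Hk2, the inducible form, fell in VEGF-down cells (-0.33 ± 0.06 SE, adjusted p = 0.000956), with arrays from 9.47 to 9.58, against 9.70 to 10.00 in GFP cells. Its VEGF-up difference was 0.06 (adjusted p = 0.406). Hk1, the broadly expressed form, differed by -0.01 and 0.02 (adjusted p = 0.823 and 0.396).

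Upper glycolysis had 8 measured genes, of which VEGF-down cells showed 2 that rose and 4 that fell, and VEGF-up cells 1 that fell. Aldoc, an aldolase isoform best known from brain, had log2 intensities of 5.95, 5.88, 5.86 and 5.87 in VEGF-down cells and 6.28, 6.40, 6.11 and 6.18 in VEGF-up cells, against 7.53, 7.44, 7.54 and 7.90 in GFP cells. Both shRNA groups lay below every GFP array. The gene was lower by 3.28-fold in VEGF-down cells (-1.71 ± 0.09 SE, adjusted p = 1.18e-07) and by 2.57-fold in VEGF-up cells (-1.36 ± 0.09 SE, adjusted p = 4.7e-06). Aldoa, the aldolase of most tissues, fell in VEGF-down cells (-0.54 ± 0.07 SE, adjusted p = 0.000183) with arrays from 11.49 to 11.60, against 11.95 to 12.34 in GFP cells. Tpi1, triosephosphate isomerase, and Pfkl, the liver-type phosphofructokinase subunit, fell there by 0.34 and 0.42 on the log2 scale (adjusted p = 7.04e-05 and 0.000301). Pfkfb3 and Pfkfb4, which make and break down the phosphofructokinase activator fructose 2,6-bisphosphate, rose in VEGF-down cells. Pfkfb3 read 4.17, 4.67, 4.32 and 4.53 in VEGF-down cells and 3.90, 3.87, 3.90 and 3.73 in VEGF-up cells, against 3.68, 3.91, 3.90 and 3.90 in GFP cells. It rose in VEGF-down cells (0.576 ± 0.10 SE, adjusted p = 0.000949, and 0.30 with an offset of 16 added to these low intensities before log2) and differed by 0.01 in VEGF-up cells (adjusted p = 0.97). Pfkfb4 rose in VEGF-down cells (0.29 ± 0.07 SE, adjusted p = 0.00672), a call lost with spike-in scaling (0.04, adjusted p = 0.616). Pfkfb2 and Tigar, further enzymes acting on that metabolite, were not among the 31 genes and differed there by -0.01 and -0.02 (adjusted p = 0.391 and 0.359). The phosphofructokinase subunits Pfkm and Pfkp differed in VEGF-down cells by 0.16 and -0.02 (adjusted p = 0.0906 and 0.456), and Pfkm passed the threshold without GFP replicate 4 (adjusted p = 0.0028) or VEGF-down replicate 3 (adjusted p = 0.0494).

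Lower glycolysis was represented by Eno2, the neuronal enolase, and Pkm, pyruvate kinase of muscle and proliferating cells. The listed genes Pgk1, Pgam1 and Eno1 of these steps were not analysed. Pkm fell in VEGF-down cells (-0.29 ± 0.08 SE, adjusted p = 0.0161), with arrays from 9.48 to 9.60, against 9.65 to 9.95 in GFP cells. Eno2 fell in VEGF-up cells (-0.09 ± 0.03 SE, adjusted p = 0.041). That call was lost without any 1 of the 4 GFP arrays, of VEGF-down replicates 1 and 3, or of VEGF-up replicates 2, 3 and 4, with adjusted p between 0.0549 and 0.116.

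Gapdh, which stands between the upper and lower steps, was seen only through the 3 array control probe sets that bear its name, for its 3' end, 5' end and middle. They were lower in VEGF-down than in GFP cells by log2 differences of -0.37, -0.39 and -0.42 without overlap (exact permutation p = 0.0286 for each, 0.0321 adjusted over 9 tests). The VEGF-up differences were -0.10, -0.13 and -0.14 (adjusted exact p = 0.0571, 0.0321 and 0.0321). The log2 gap of the 3' end over the 5' end, a sign of RNA quality, ran from -0.49 to -0.45 in VEGF-down cells and from -0.46 to -0.44 in VEGF-up cells, against -0.53 to -0.46 in GFP cells.

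Among the 5 measured genes that handle pyruvate and lactate, 2 rose in VEGF-down cells and 3 fell in VEGF-up cells, while Ldha was not analysed. Ldhb, the lactate dehydrogenase subunit that favours the step from lactate to pyruvate, had log2 intensities of 12.90, 12.88, 12.86 and 12.87 in VEGF-down cells and 11.88, 11.79, 11.72 and 11.79 in VEGF-up cells, against 11.89, 11.90, 12.02 and 12.13 in GFP cells. The VEGF-down arrays stood above all others. The gene was 1.86-fold higher in VEGF-down cells (0.90 ± 0.05 SE, adjusted p = 1.88e-07) and fell in VEGF-up cells (-0.19 ± 0.05 SE, adjusted p = 0.0309). The fall was lost without GFP replicate 3 or VEGF-up replicate 2, 3 or 4 (adjusted p between 0.0716 and 0.0801). Pdk1, a kinase that shuts pyruvate dehydrogenase, read 7.35, 7.53, 7.39 and 7.48 in VEGF-down cells and 6.68, 6.69, 6.71 and 6.67 in VEGF-up cells, against 7.61, 7.32, 7.63 and 7.35 in GFP cells. Only the VEGF-up arrays stood apart, 1.73-fold lower (-0.79 ± 0.07 SE, adjusted p = 3.67e-05), where VEGF-down cells differed by -0.04 (adjusted p = 0.672). Pdk3, a kinase of the same family, fell in VEGF-up cells (-0.47 ± 0.09 SE, adjusted p = 0.00387), and its VEGF-down difference of -0.21 missed the threshold (adjusted p = 0.0829) but passed it without GFP replicate 2 (-0.30, adjusted p = 0.00454). The lactate carriers moved little. Slc16a1 rose by 0.06 in VEGF-down cells (adjusted p = 0.0341), which turned to -0.19 with spike-in scaling (adjusted p = 0.0144), was 0.06 with the replicate block (adjusted p = 0.062), and was lost without any 1 of the 4 GFP arrays or of VEGF-down replicates 1, 2 and 4 (adjusted p between 0.0516 and 0.0873). Slc16a3 differed by -0.14 in VEGF-down and -0.13 in VEGF-up cells (adjusted p = 0.212 and 0.297), and by -0.026 and -0.016 without GFP replicate 4 (adjusted p = 0.206 and 0.462).

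The 5 listed genes of the hypoxia-inducible factor alpha subunits and their hydroxylases included 3 that fell in VEGF-down cells and 2 that fell in VEGF-up cells, and none that passed the test as higher. Arnt, the beta subunit that pairs with the alpha subunits, was not among the 31 genes and rose in VEGF-down cells (0.57 ± 0.04 SE, adjusted p = 7.05e-07), with a VEGF-up difference of -0.01 (adjusted p = 0.843). Egln3, a prolyl hydroxylase and itself a target of these factors, had log2 intensities of 5.74, 5.78, 5.68 and 5.78 in VEGF-down cells and 7.05, 7.01, 7.02 and 7.01 in VEGF-up cells, against 7.48, 7.07, 7.38 and 7.35 in GFP cells. Neither shRNA group overlapped the GFP arrays. It was 2.97-fold lower in VEGF-down cells (-1.57 ± 0.07 SE, adjusted p = 3.12e-08) and fell by 0.30 on the log2 scale in VEGF-up cells (adjusted p = 0.0179, and 0.0532 without GFP replicate 3). Epas1, which encodes the HIF-2 alpha subunit, read 5.99, 5.83, 6.07 and 6.06 in VEGF-down cells and 6.36, 6.31, 6.32 and 6.31 in VEGF-up cells, against 6.67, 6.46, 6.62 and 6.52 in GFP cells. It fell in VEGF-down cells (-0.58 ± 0.06 SE, adjusted p = 1.57e-05) and fell by 0.25 in VEGF-up cells (adjusted p = 0.0172, and 0.0519 without GFP replicate 3). Hif1a, the HIF-1 alpha subunit, fell in VEGF-down cells (-0.35 ± 0.07 SE, adjusted p = 0.00193) and differed by -0.08 in VEGF-up cells (adjusted p = 0.409). The hydroxylase Egln1 differed by -0.19 in VEGF-down cells (adjusted p = 0.0585), and passed the threshold without GFP replicate 2 (adjusted p = 0.0207) or GFP replicate 4 (adjusted p = 0.0458). With all arrays, Egln1 passed under quantile normalization, only probe sets above background, median centring and spike-in scaling (adjusted p = 0.0475, 0.0391, 0.0183 and 1.58e-06). Egln2, its relative, differed by 0.00 (adjusted p = 0.971).

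The hypoxia response had 7 measured genes: VEGF-down cells showed 2 that rose and 3 that fell, VEGF-up cells 1 that rose and 2 that fell. Ero1a, an oxidase that forms disulfide bonds in the endoplasmic reticulum, had log2 intensities of 8.03, 8.09, 8.10 and 8.12 in VEGF-down cells and 9.92, 9.87, 10.00 and 9.94 in VEGF-up cells, against 9.47, 9.67, 9.38 and 9.55 in GFP cells. The shRNA groups lay on opposite sides of the GFP arrays. The gene was 2.70-fold lower in VEGF-down cells (-1.43 ± 0.05 SE, adjusted p = 7.49e-09) and 1.33-fold higher in VEGF-up cells (0.42 ± 0.05 SE, adjusted p = 0.000408). Ndrg1, a stress-induced gene of the N-myc downstream family, went the opposite way, with 8.90, 8.92, 8.99 and 9.06 in VEGF-down cells and 8.17, 8.21, 8.13 and 8.12 in VEGF-up cells, against 8.52 on each GFP array. It was 1.36-fold higher in VEGF-down cells (0.45 ± 0.03 SE, adjusted p = 1.53e-06) and 1.29-fold lower in VEGF-up cells (-0.37 ± 0.03 SE, adjusted p = 3.68e-05). Ddit4, an inhibitor of mTORC1 signalling, read 9.46, 9.52, 9.43 and 9.55 in VEGF-down cells and 10.03, 10.18, 10.05 and 10.07 in VEGF-up cells, against 9.98, 10.10, 10.00 and 10.04 in GFP cells. Only the VEGF-down arrays stood apart, 1.46-fold lower (-0.54 ± 0.04 SE, adjusted p = 1.34e-06), where VEGF-up cells differed by 0.05 (adjusted p = 0.364). Bnip3l, a mitophagy receptor, read 9.97, 9.99, 10.01 and 9.98 in VEGF-down cells and 9.82, 9.72, 9.76 and 9.69 in VEGF-up cells, against 9.90, 9.84, 9.83 and 9.89 in GFP cells. It rose by 0.12 in VEGF-down cells (adjusted p = 0.00704), which turned to -0.13 with spike-in scaling (adjusted p = 0.071). In VEGF-up cells it fell by 0.12 (adjusted p = 0.0174), a call lost without GFP replicate 1 (adjusted p = 0.0531) or VEGF-up replicate 2 (adjusted p = 0.0551). P4ha1, a collagen prolyl hydroxylase subunit, fell by 0.19 in VEGF-down cells (adjusted p = 0.00541), and its VEGF-up difference of -0.13 passed the threshold without GFP replicate 2 (adjusted p = 0.00798) but not with all arrays (adjusted p = 0.0792). Ankrd37 and Adm, both targets of the hypoxia-inducible factors, were at or below background on every array.

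**Figure D3:**
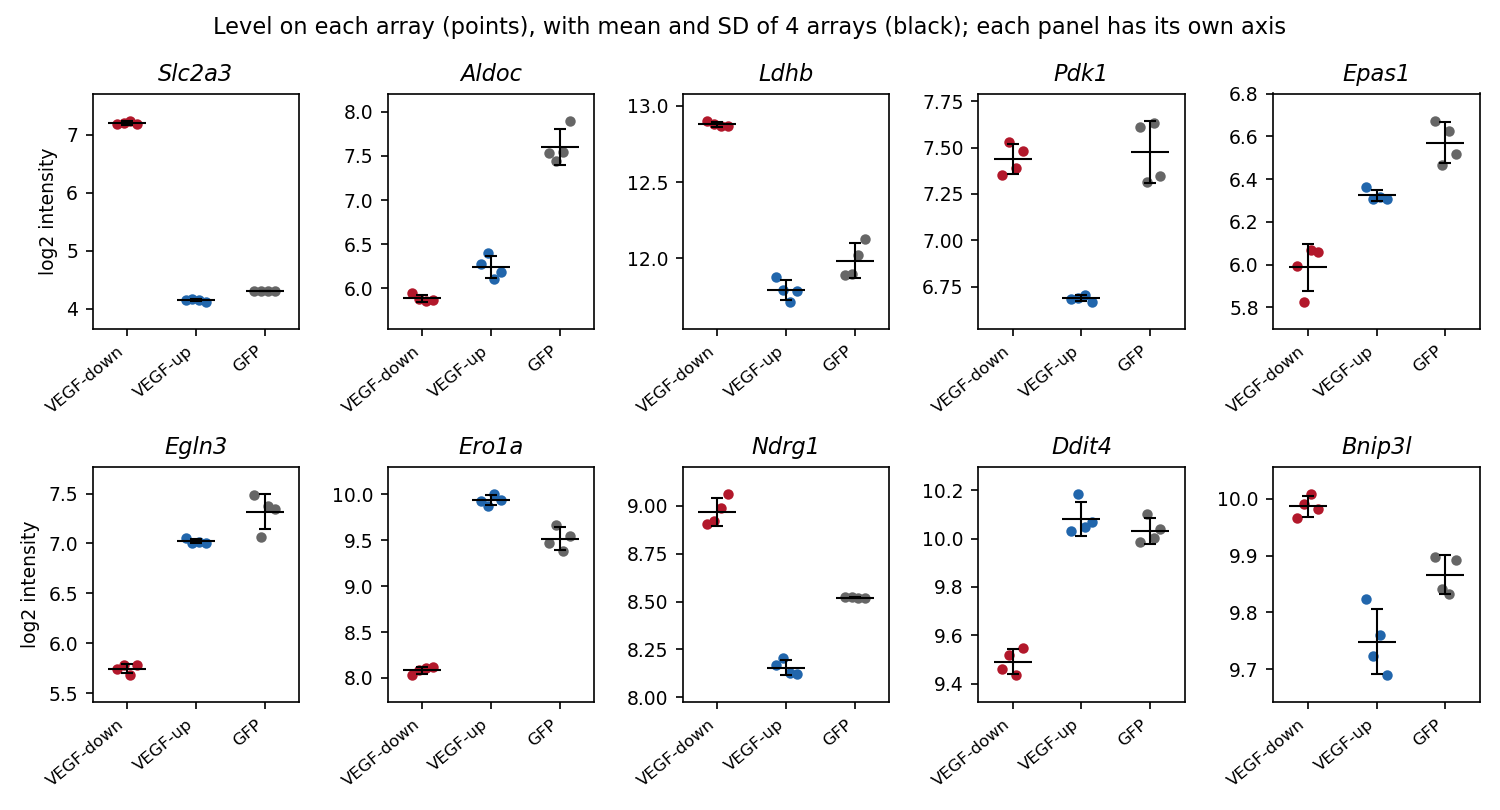
Log2 intensity of 10 genes, 1 panel each with its own axis, for VEGF-down, VEGF-up and GFP cells; points are arrays and bars are the mean and SD of 4. Ero1a and Ndrg1 lie on opposite sides of the GFP arrays in the shRNA groups, and Pdk1 is low only in VEGF-up cells.

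Differences of at least 0.58 on the log2 scale that passed the test were found for 6 genes in VEGF-down cells, beside 5.76% of all probe sets, and for 2 in VEGF-up cells, beside 1.22%. The arrays did not overlap for 21 genes in VEGF-down against GFP cells (37.1% of all probe sets) and for 11 in VEGF-up against GFP cells (18% of all probe sets). Between the shRNAs they did not overlap for 26 (32.8% of all probe sets). The authors' deposited tables list 9 of the 31 genes for VEGF-down cells, where 6.96% of tested probe sets are listed, and 5 for VEGF-up cells, where 4.59% are. In the authors' deposited table for VEGF-down cells the signed folds are -3.11 for Aldoc, -3.03 for Egln3, -2.68 for Ero1a and 1.89 for Ldhb. The authors' deposited table for VEGF-up cells gives -2.41 for Aldoc, -1.72 for Pdk1 and 1.35 for Ero1a.

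**Figure D4:**
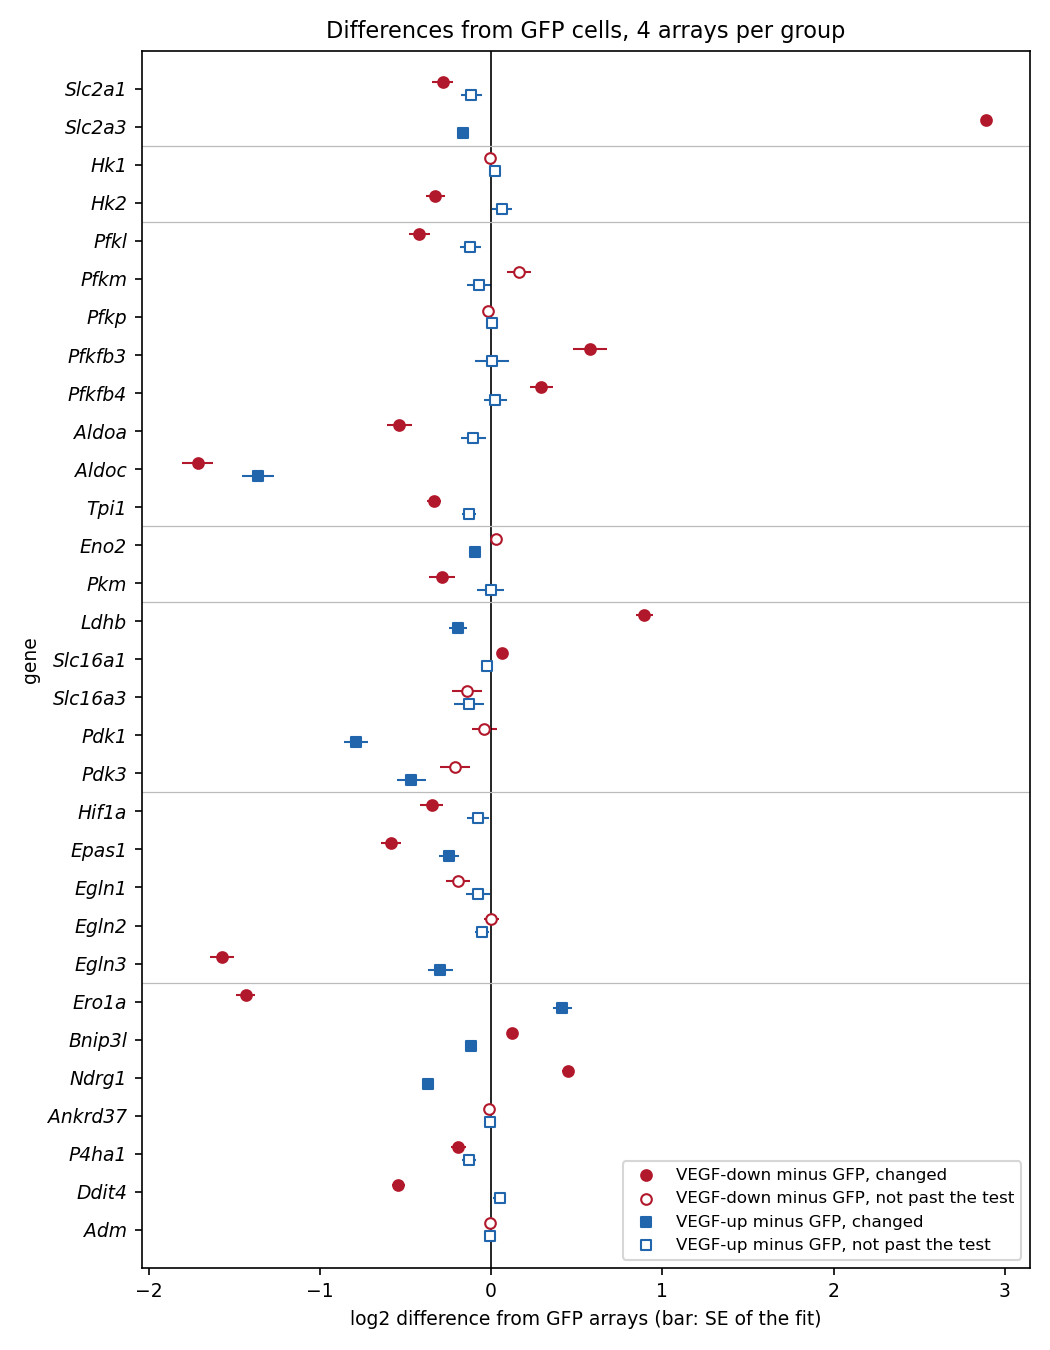
Log2 difference from GFP cells with its SE on the x axis for the 31 genes, 1 row each, in VEGF-down and VEGF-up cells. Filled points passed the adjusted p of 0.05; the points run from -1.71 for Aldoc to 2.89 for Slc2a3, both in VEGF-down cells.

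Set directly against each other, the shRNA groups differed most in Slc2a3, which was 8.29-fold lower in VEGF-up than in VEGF-down cells (log2 difference -3.05, adjusted p = 8.90e-15). Ero1a was 3.60-fold higher in VEGF-up cells (1.85, adjusted p = 8.32e-10), and Egln3 was higher by 1.28 on the log2 scale (adjusted p = 1.14e-07). Ddit4 was also higher in VEGF-up cells (0.59, adjusted p = 5.06e-07). Ldhb, Ndrg1 and Pdk1 were lower in VEGF-up cells, with log2 differences of -1.09, -0.81 and -0.75 (adjusted p = 3.05e-08, 1.08e-08 and 9.46e-06). These 7 are the genes that differed by at least 0.58, beside 6.69% of all probe sets. By role, 9 of the 19 glucose genes were lower and 6 higher in VEGF-up cells, and of the 12 genes of the factors and the hypoxia response 5 were higher and 2 lower. Smaller calls in this comparison were less firm, and 16 of the 22 changes held under every alternative tried. With spike-in scaling the calls of Pdk3, Pfkm, Pfkfb4, Eno2, Bnip3l and Slc16a1 were lost (adjusted p between 0.115 and 0.961). Slc16a1 was also lost with median centring (adjusted p = 0.0923). Pdk3 (-0.26, adjusted p = 0.0425) was lost without GFP replicate 3, any 1 VEGF-down array, or VEGF-up replicate 2, 3 or 4 (adjusted p between 0.0509 and 0.121). Pfkm (-0.23, adjusted p = 0.0226) was lost without VEGF-down replicate 1, 2 or 4 or VEGF-up replicate 1 or 3 (adjusted p between 0.0549 and 0.0662). Slc2a1 (0.17, adjusted p = 0.0666) passed without GFP replicate 2 (adjusted p = 0.00301) and with only the 8 arrays compared (adjusted p = 0.00326). It also passed with only probe sets above background, with median centring and with spike-in scaling (adjusted p = 0.0405, 0.0132 and 0.00767).

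A further 74 measured genes of the same pathways, from a list of 80, showed 14 higher and 22 lower in VEGF-down cells and 11 higher and 11 lower in VEGF-up cells. The shares that changed were 48.6% and 29.7%, beside 31% and 13.2% of all probe sets. Between the shRNAs, 16 were higher and 13 lower in VEGF-up cells, a share of 39.2% beside 30.6%. Their median log2 difference was -0.01 for either shRNA against GFP, as for all probe sets. Angptl4, a secreted inhibitor of lipoprotein lipase, was lower in VEGF-down cells (-0.75) and higher in VEGF-up cells (1.01). Eno3, the muscle enolase, did the same (-0.87 and 0.37), as did Lonp1, a mitochondrial protease (-0.51 and 0.43). Igfbp3, which binds insulin-like growth factors, went the opposite way (0.89 and -0.35), as did the repressor Bhlhe40 (0.50 and -0.24). Hmox1, haem oxygenase 1, fell in both (-1.13 and -0.83), and Cdkn1a, the p21 cell cycle inhibitor, rose in both (0.59 and 0.78). All of these differences, with SE of 0.03 to 0.08, passed the adjusted threshold. Dusp1, a phosphatase of MAP kinases, rose in VEGF-down cells (1.18) and Vldlr, a lipoprotein receptor, fell there (-0.91), with VEGF-up differences of 0.18 and -0.04 that did not pass.

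**Figure D5:**
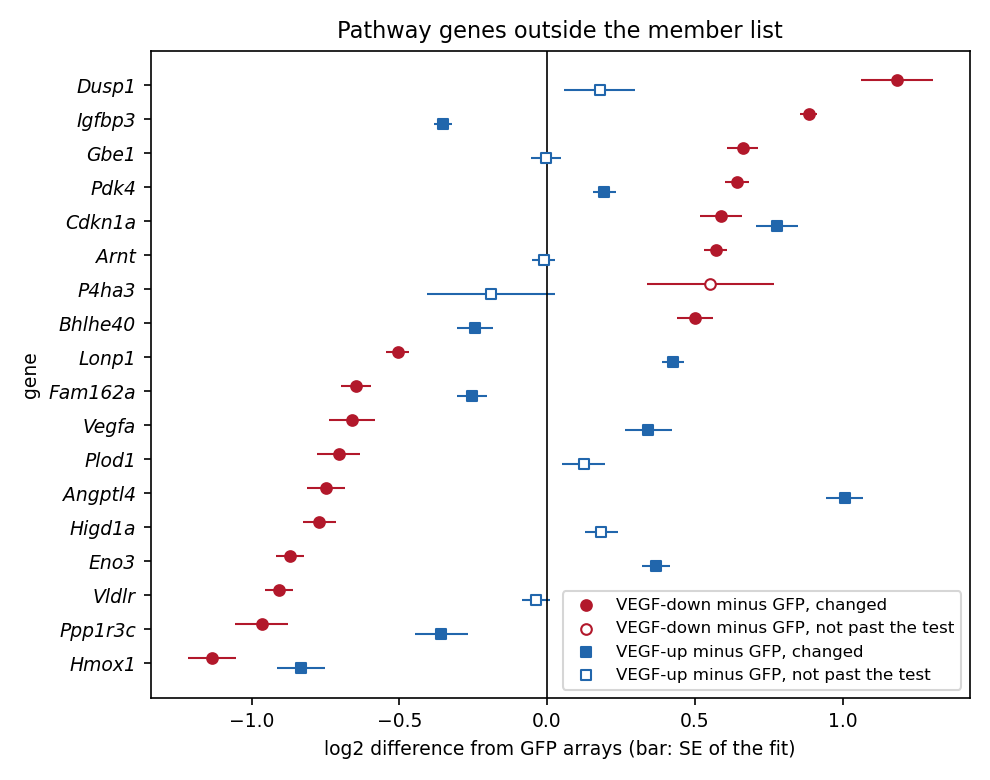
Log2 difference from GFP cells with its SE on the x axis for the 18 further pathway genes that changed by at least 0.58 in some comparison, 1 row each, in VEGF-down and VEGF-up cells, filled where the test was passed. Dusp1 is highest and Hmox1 lowest in VEGF-down cells, and Angptl4 lies on opposite sides of 0.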

How the data were processed

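Gene expression was measured on 12 arrays, 4 each of VEGF-down, VEGF-up and GFP cells. The authors deposited a linear intensity per probe set and array, for which the submitters' processing notes name GCRMA without a version, and values ran from 3.04 to 17470.1. The authors' deposited tables of changed genes give a signed fold (a score), with a T-statistic, p-value, FDR and q-value. The file headers do not describe the test further. Of 17370 probe sets, 64 controls were left out and 17306 tested, of which 16464 had 1 symbol and 842 none. The log2 of the deposited intensities was fitted with limma 3.58.1 (R 4.3.3; lmFit, eBayes with a variance trend), with all 12 arrays and 1 mean per group, two-sided, Benjamini-Hochberg over all 17306 probe sets at 0.05. The fit was tested on simulated data. Background was the 95th percentile of 68 receptor probe sets. Array medians ran from 35.6 to 37.1, and 62.5% to 63.3% of probe sets were above background per array; 4 arrays a group limit the precision. Per-array values are given for genes that changed by at least 0.58 or in opposite directions. Replicate numbers recur in all groups but are not stated to mark a shared culture or day, so the main fit used no block. Deviations from the group mean, over probe sets above background, correlated between -0.09 and 0.16 for arrays with the same number. The genes, lists and rules were chosen with earlier results of these data known.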

Additional observations from a re-analysis of the deposited data

Results flagged for a closer look

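In 93 sets of 4 arrays, 1 array lay far from the other 3 in 8, where chance alone gives about 1 in 20. VEGF-down replicate 1 read 5.95 for Aldoc, with the others from 5.86 to 5.88. VEGF-up replicate 4 read 6.28 for Pfkl (others 6.21 to 6.22), VEGF-up replicate 1 read 6.36 for Epas1 (others 6.31 to 6.32) and VEGF-up replicate 2 read 7.70 for Egln1 (others 7.62 to 7.63). GFP replicate 4 read 8.68 for Pfkm (others 8.37 to 8.40) and 4.47 for Slc16a3 (others up to 4.04). GFP replicate 1 read 3.68 for Pfkfb3 (others 3.90 to 3.91), and GFP replicate 2 read 11.75 for Tpi1 (others 11.92 to 11.95). All values are log2 intensities.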

How the results depend on the processing

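With spike-in scaling, the VEGF-down count over all probe sets was 14645 (5358 as deposited) and over the pathway genes 66 (36), and the VEGF-up difference of Vegfa was 0.21 (adjusted p = 0.0639). That scaling turned Bnip3l to -0.13 and Slc16a1 to -0.19 in VEGF-down cells, and Slc16a1 to 0.033 in VEGF-up against VEGF-down cells. With median centring, 10708 probe sets changed in VEGF-down cells, 23.8% of them higher (47.1% as deposited), and between the shRNAs 11521 (5288) and 53 pathway genes (29) changed. The share of the 31 genes' changes that were higher between the shRNAs was 50% as deposited, 63.0% with centring and 73.7% with spike-in scaling, beside 49.3%, 78.3% and 71.5% over all probe sets. In VEGF-up cells 7 of the 31 genes changed with only the 8 arrays compared (11 in the main analysis). Leaving out 1 array at a time gave 19 to 21 in VEGF-down cells, 7 to 12 in VEGF-up cells and 20 to 23 between the shRNAs. With the replicate block the counts were 20, 10 and 22, and it ended the calls of Slc16a1 in VEGF-down cells and Ldhb in VEGF-up cells (adjusted p = 0.0688); Pdk3 passed in VEGF-down cells (adjusted p = 0.0262). The cause of these shifts was not tested.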
